A study of Homo sapiens with 6 samples.

Results

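The TEAD transcription factors and 6 of the best known output genes of their coactivators YAP and TAZ were followed in RNA sequencing of cells labelled Hep3B, a human hepatocellular carcinoma line. The 10 genes were chosen by name from the 27009 genes of the deposited table: TEAD1, TEAD2, TEAD3 and TEAD4, and the targets CYR61 (now CCN1), CTGF (now CCN2), ANKRD1, AMOTL2, AXL and AJUBA. All 10 were found and all 10 passed the filter on low values. All 6 libraries, the controls included, came from cells in which endogenous PD-L1 was deleted. The 3 vector libraries came from knockout cells with the empty vector, and the 3 libraries labelled nPD-L1 from knockout cells given nPD-L1, a human PD-L1 mutated so that it accumulates in the nucleus, by lentivirus from a pCDH-CMV-Puro construct. The comparison was made by the study to ask how nPD-L1 alters gene expression, and there was no group with wild-type PD-L1.

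The Hippo pathway is a kinase cascade that phosphorylates YAP and TAZ and so keeps them out of the nucleus. When the cascade is off, YAP and TAZ enter the nucleus, where they have no DNA-binding domain of their own and are brought to promoters and enhancers mainly by the 4 TEAD proteins. TEADs recognise the MCAT element, and CTGF, CYR61 and ANKRD1 are the genes most often read as the output of the pathway. In the liver the pathway restrains organ size, and active YAP is common in hepatocellular carcinoma.

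CTGF, which encodes a secreted matrix-associated protein, and ANKRD1, which encodes a nuclear ankyrin-repeat protein, were the 2 genes of the 10 that were higher in the libraries labelled nPD-L1 by the test used here. CTGF was 4.49-fold higher (95% interval 2.60 to 7.77) and ANKRD1 1.99-fold (95% interval 1.46 to 2.73). The other 8 genes, all 4 TEADs among them, did not pass. The test was limma on log2(value + 1), fitted over all 15076 genes tested, with a call at a Benjamini-Hochberg adjusted p under 0.05. By that rule 4.96% of all genes tested were called, 4.04% higher and 0.922% lower, against 2 of 10 higher and 0 of 10 lower here. At an unadjusted p under 0.05, TEAD4 joined the 2 called genes and again 0 were lower, where 14.2% of all genes tested passed, 9.53% higher and 4.71% lower. edgeR and DESeq2, run on whole reads, each called 2 higher and 0 lower.

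The promoters of CTGF and ANKRD1 are shown because the MCAT elements in them are where a TEAD can bind. That of AXL is shown because it holds none in the same window, although AXL has 1 before another listed start. The set of RefSeq promoters used here held 7 of the 10 genes. TEAD1, TEAD4 and CYR61 were missing from that set and were not searched. Both strands of the 250 bases before the annotated start were searched for the MCAT element GGAATG, the AP-1 element TGANTCA, the SMAD-binding element CAGAC and the CArG box of serum response factor. Printed here are the bases lying outside the gene as the deposited table places it, plus 30 bases around a further ANKRD1 element, 5′ to 3′ on the gene's strand and in GRCh38.p14, with MCAT elements in capitals. They cover chr6:131951374-131951622 on the minus strand for CTGF, chr10:90921277-90921337 and chr10:90921198-90921227 on the minus strand for ANKRD1, and chr19:41218973-41219202 on the plus strand for AXL.
CTGF: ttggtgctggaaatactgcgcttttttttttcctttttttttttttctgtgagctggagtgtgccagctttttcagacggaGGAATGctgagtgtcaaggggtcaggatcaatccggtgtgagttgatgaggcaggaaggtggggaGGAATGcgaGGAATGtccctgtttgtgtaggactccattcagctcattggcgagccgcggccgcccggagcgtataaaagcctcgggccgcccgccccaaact
ANKRD1, far stretch: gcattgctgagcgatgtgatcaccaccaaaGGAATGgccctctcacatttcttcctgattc
ANKRD1, near stretch: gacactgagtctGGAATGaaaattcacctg
AXL: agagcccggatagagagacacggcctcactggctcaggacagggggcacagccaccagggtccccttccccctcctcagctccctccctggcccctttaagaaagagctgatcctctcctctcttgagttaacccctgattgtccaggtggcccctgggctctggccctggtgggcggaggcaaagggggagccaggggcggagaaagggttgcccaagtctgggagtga

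CTGF held 3 MCAT elements, at -169 to -164, -104 to -99 and -95 to -90 from the RefSeq start, and the inner 2 were separated by a few bases. ANKRD1 held 2, at -220 to -215 and -128 to -123 from its RefSeq start. That start lies 189 bases inside the gene as the deposited table draws it, so the inner element falls within the annotated gene. ANKRD1 also had an AP-1 element at -195 to -189. Among all 35116 promoters in the RefSeq table, 11.9% held at least 1 MCAT element, 0.94% at least 2 and 0.0826% at least 3, and 6.57% held an AP-1 element. TEAD2, TEAD3, AMOTL2, AXL and AJUBA had no MCAT element before the start nearest to the deposited gene start. AMOTL2, AXL and AJUBA each had 1 before another start in the table. SMAD elements were found in CTGF (1), ANKRD1 (2), AMOTL2 (1), AXL (1) and AJUBA (2), against 38.0% of all promoters with at least 1. A CArG box was found in none of the 7, against 1.16% of all promoters. Such matches are descriptions of sequence and do not show binding.

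The share of genes with an MCAT element was read for called genes as well. Of the tested genes with an entry under their symbol in the RefSeq set used here, 1376 of 10486 (13.1%) held one before any listed start. The share was 70 of 466 (15%) among those called higher and 15 of 104 (14.4%) among those called lower, and these shares were not tested against each other.

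The libraries held 17427519 to 22253295 reads on genes, of which the top 10 genes held 6.43% to 7.43%. The study calls the replicates independent sequenced samples, and the labels do not say that they came from separate cultures, so p-values measure the spread between these libraries, which may be technical. CD274, which encodes PD-L1, had 28.3, 38.4 and 47.8 scaled reads in vector replicates 1, 2 and 3 against 16.8, 19.2 and 30.9 in nPD-L1 replicates 1, 2 and 3. In this RNA it was not higher where it was to be re-expressed (log2 fold change -0.76, SE 0.34, limma adjusted p = 0.338), which goes against the label nPD-L1. The paper examined PD-L1 protein in its stable Hep3B cells by immunoblot and cell fractionation, which is protein and not a measure of these libraries. Within these data every direction given here rests on the labels alone. The label Hep3B was compared with 10 hepatocyte markers, 8 of which have a row (AFP and GPC3 are not analysed here). ALB, APOA1, APOB, TTR and TF were at or below 2.89 scaled reads in every library, whereas the fibrinogen gene FGB had 962 to 1540. HNF4A, a liver transcription factor, was at 6.24 to 19.2 in the vector and 33.8 to 51.6 in those labelled nPD-L1 and was called higher (adjusted p = 0.0232). SERPINA1 lay at 7.91 to 41.4 in all libraries, and the summed markers at 982 to 1562 against 1064 to 1177. The near absence of ALB and the apolipoproteins goes against a hepatocyte-like identity in both groups, whereas FGB, which made up most of the summed markers, goes with it. Hep3B is used here only as the label gives it.

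Scaled reads, the unit used throughout, are reads on a gene divided by a size factor of the library. Values are comparable between libraries for 1 gene, and between genes only after division by gene length.

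**Figure D1:**
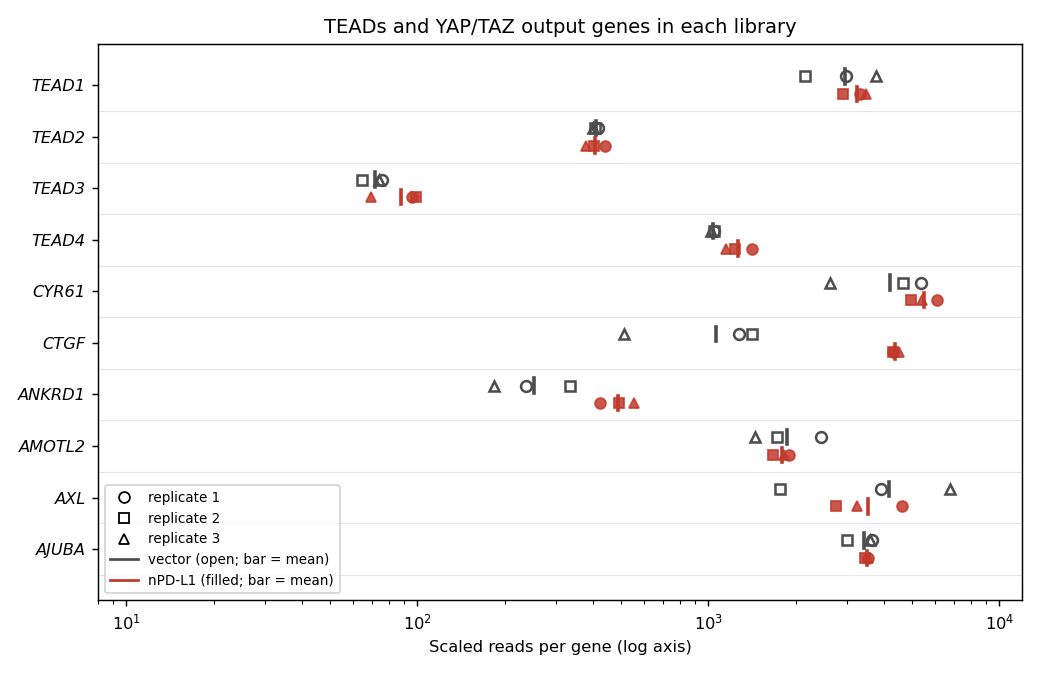
Scaled reads of the 10 genes in each of the 6 libraries, on a log axis. Open grey symbols are vector and filled red symbols libraries labelled nPD-L1, circles, squares and triangles are replicates 1, 2 and 3, and vertical bars are group means. The red points lie clear of the grey ones for CTGF, ANKRD1 and TEAD4.

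The TEADs, the DNA-binding partners, differed widely in level, and none of the 4 passed the test between the groups. TEAD4 (ENSG00000197905, chromosome 12, 2959330 to 3040673, plus strand) had 1045, 1042 and 1022 scaled reads in vector replicates 1, 2 and 3 and 1408, 1236 and 1154 in nPD-L1 replicates 1, 2 and 3. All 3 libraries labelled nPD-L1 lay above all 3 vector libraries. The log2 fold change was 0.28 (SE 0.10, 95% interval 0.05 to 0.52), and its adjusted p of 0.216 missed the threshold although the unadjusted p was 0.0211. Groups that do not overlap were common, 20.6% of all genes tested in either direction 12% with nPD-L1 higher and 8.54% with nPD-L1 lower.

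TEAD1 (chromosome 11, 12674591 to 12944483, plus strand) had 2960, 2151 and 3761 scaled reads in the vector and 3314, 2896 and 3476 in those labelled nPD-L1. The nPD-L1 values fell inside the vector range, and the log2 fold change was 0.16 (SE 0.18, limma adjusted p = 0.741). TEAD2 (chromosome 19, 49340595 to 49362457, minus strand) had 419, 408 and 401 in the vector group against 442, 405 and 378, with overlap. Its 95% interval ran from -0.27 to 0.25 on the log2 scale, that is from 0.831-fold to 1.19-fold. TEAD3 (chromosome 6, 35473597 to 35497076, minus strand) had 75.7, 64.4 and 73.8 against 95.8, 99.1 and 69.5, with overlap through nPD-L1 replicate 3. Its log2 fold change was 0.29 (SE 0.21, limma adjusted p = 0.62). TEAD2 is crossed by CD37 (10.2 to 44.7 scaled reads) and DKKL1 (at most 11.3) on the opposite strand. The library kit does not mark strand, so reads from any shared exon bases could not be told apart. Whether the exons overlap was not examined.

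TEAD1 had more scaled reads than TEAD4, but its length in the deposited table is 10279 bases against 2272, so their order rests on that length. Per kilobase of this gene length TEAD4 was the most abundant TEAD. Its level was 456 ± 5.60 (SD, n = 3) scaled reads per kilobase in the vector group, followed by TEAD1 at 288 ± 78.3, TEAD2 at 137 ± 3.01 and TEAD3 at 23.4 ± 1.99. The TEAD4 mean was 19.5 times that of TEAD3. As a share of the summed TEAD level per kilobase, TEAD4 made up 50.7% ± 4.71 in the vector and 53.7% ± 2.32 in those labelled nPD-L1, and TEAD1 31.5% ± 6.11 and 30.3% ± 3.14. The summed TEAD level was 913, 826 and 974 per kilobase in the vector and 1122, 994 and 996 in those labelled nPD-L1. These groups did not overlap, and the exact permutation test gave p = 0.1 (two-sided), the smallest that 3 against 3 libraries allow.

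Of CTGF and CYR61, the pair of secreted CCN proteins, CTGF passed the test and CYR61 did not. CTGF (ENSG00000118523, chromosome 6, 131948176 to 131951373, minus strand) had 1270, 1412 and 513 scaled reads in vector replicates 1, 2 and 3 and 4304, 4302 and 4519 in nPD-L1 replicates 1, 2 and 3. Every library labelled nPD-L1 lay far above every vector library, and vector replicate 3 lay well below the other vector libraries. The mean rose from 1065 ± 483 (SD, n = 3) to 4375 ± 125, a log2 fold change of 2.17 (SE 0.34, limma adjusted p = 0.00884). The coefficient of variation was 45.3% in the vector group and 2.86% in the nPD-L1 group. The difference was 1.71 on the log2 scale without vector replicate 3 and 2.44 without vector replicate 2, and in the latter fit the call was lost (adjusted p = 0.11). It was also lost with no filter on low values (adjusted p = 0.153), and the adjusted p ran from 1.39e-06 to 0.153 over 19 alternatives. The antisense gene AL133346.1, which overlaps CTGF, had at most 2.08 scaled reads.

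CYR61 (chromosome 1, 85580761 to 85583962, plus strand), which encodes the closest relative of CTGF in this list, had 5397, 4651 and 2615 scaled reads in the vector and 6118, 4979 and 5435 in those labelled nPD-L1. Vector replicate 1 exceeded nPD-L1 replicate 2, so the groups overlapped. The log2 fold change was 0.44 (SE 0.22, 95% interval -0.05 to 0.94, limma adjusted p = 0.421). It was 0.13 without vector replicate 3, which was again the lowest library, and 0.65 without vector replicate 1.

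The balance of both genes was examined as the log2 ratio of CTGF to CYR61 within each library. It was -2.09, -1.72 and -2.35 in the vector and -0.51, -0.21 and -0.27 in those labelled nPD-L1. The mean ratio differed by 1.72 on the log2 scale, with no overlap (exact permutation test, two-sided, p = 0.1, adjusted p = 0.2 over 4 ratios). The log2 ratio of CTGF to ANKRD1 also differed without overlap, 1.99 ± 0.48 (SD, n = 3) against 3.16 ± 0.17 (exact permutation p = 0.1, adjusted p = 0.2). Ratios of TEAD4 to TEAD1 and of AXL to AMOTL2 overlapped between the groups (exact permutation p = 0.7 and p = 1). With 3 libraries a group, no ratio could fall under 0.05.

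ANKRD1 (ENSG00000148677, chromosome 10, 90912096 to 90921276, minus strand), known as a stress-induced cofactor in muscle and a frequent reporter of YAP activity elsewhere, had 235, 335 and 184 scaled reads in the vector libraries. It had 423, 494 and 556 in nPD-L1 replicates 1, 2 and 3. All libraries labelled nPD-L1 lay above the vector libraries, and vector replicate 3 was again lowest. The mean rose from 252 ± 77.0 (SD, n = 3) to 491 ± 66.5, a log2 fold change of 0.996 (SE 0.21, limma adjusted p = 0.0168). The call was lost without vector replicate 1 (adjusted p = 0.0837) and without nPD-L1 replicate 1, 2 or 3 (0.0562, 0.0603 and 0.118), with log2 fold changes of 0.90 to 1.10 in these 4 fits.

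AMOTL2 and AJUBA encode junction and LIM-domain proteins that are both targets and regulators of the pathway, AMOTL2 by holding YAP at junctions and AJUBA by restraining the LATS kinases. AMOTL2 (chromosome 3, 134355874 to 134375479, minus strand) had 2441, 1722 and 1446 scaled reads in the vector and 1893, 1661 and 1825 in those labelled nPD-L1. The nPD-L1 values lay within the vector range, and the log2 fold change was -0.03 (95% interval -0.40 to 0.34). AJUBA (chromosome 14, 22971174 to 22982642, minus strand) had 3657, 3001 and 3597 against 3535, 3463 and 3529. Its libraries labelled nPD-L1 were nearly alike, and its log2 fold change was 0.04 (95% interval -0.19 to 0.27), the narrowest interval among the output genes. The limma adjusted p was 0.96 for AMOTL2 and 0.885 for AJUBA.

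AXL, a receptor tyrosine kinase of the TAM family (chromosome 19, 41219203 to 41261766, plus strand), was the most variable of the 10. It had 3927, 1769 and 6788 scaled reads in vector replicates 1, 2 and 3, a 3.84-fold range within 1 group. The libraries labelled nPD-L1 had 4610, 2736 and 3237, inside that range. The log2 fold change was -0.07 (SE 0.45, 95% interval -1.12 to 0.98, limma adjusted p = 0.965), so a change of up to about 2-fold in either direction could not be detected. The sign turned without vector replicate 3 (0.39) and without nPD-L1 replicate 2 (0.10).

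**Figure D2:**
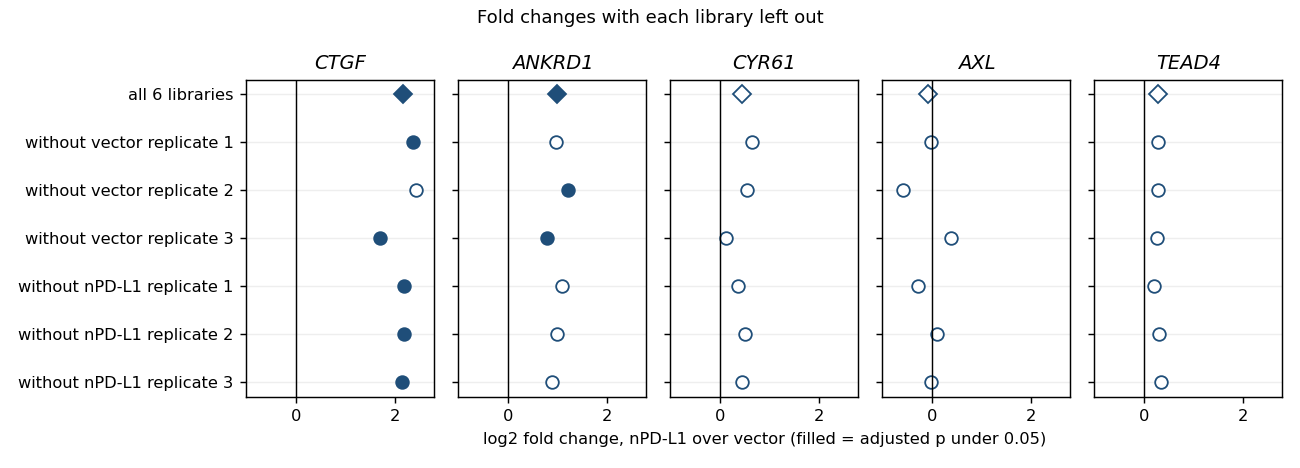
Log2 fold change of CTGF, ANKRD1, CYR61, AXL and TEAD4 with all 6 libraries (diamonds) and with each library left out (circles). Filled symbols had an adjusted p under 0.05. CTGF stayed at 1.71 or above and lost its call once, ANKRD1 lost its call in 4 of 6 fits, and AXL changed sign.

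Of the 10 genes, 7 had a positive and 3 a negative log2 fold change, with a median of 0.22, beside -0.02 over all genes tested. With another scaling the sign of AJUBA turned (-0.0079 with upper-quartile factors), as did that of TEAD2 (0.0039 with trimmed mean of M values factors). The 3 genes without overlap, CTGF, ANKRD1 and TEAD4, all had nPD-L1 higher. Over all genes tested, 12% lay without overlap with nPD-L1 higher and 8.54% with nPD-L1 lower.

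The order of the levels per kilobase differed between the groups, mainly in the places of CTGF and ANKRD1. In the vector group it ran CYR61 (1719 ± 587), AXL (807 ± 489), AJUBA (572 ± 60.7), TEAD4 (456 ± 5.60), CTGF (455 ± 206), AMOTL2 (312 ± 85.8), TEAD1 (288 ± 78.3), TEAD2 (137 ± 3.01), ANKRD1 (127 ± 38.9) and TEAD3 (23.4 ± 1.99). The ranges of neighbours overlapped except between AJUBA and TEAD4, TEAD1 and TEAD2, and ANKRD1 and TEAD3. In the nPD-L1 group CTGF stood second, at 1871 ± 53.4, below CYR61 at 2245 ± 233 and above AXL at 685 ± 188, and overlapped neither. ANKRD1, at 248 ± 33.6, stood above TEAD2, at 137 ± 10.8, without overlap. TEAD1 and AMOTL2 exchanged places, with overlap in both groups.

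The 3 vector libraries spread more than those labelled nPD-L1 for several output genes, and not in 1 direction. Vector replicate 3 was the lowest vector library for CTGF, CYR61, ANKRD1, AMOTL2, TEAD2 and TEAD4, and the highest for AXL and TEAD1. Over all genes tested it was the lowest vector library in 35.4% and the highest in 36.6%. Its deviation from the vector mean was -0.92 for CTGF and 0.91 for AXL on the log2 scale. Vector replicate 2 was the lowest for AXL (-1.03), TEAD1, TEAD3 and AJUBA, and the highest for CTGF (0.54) and ANKRD1 (0.46).

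**Figure D3:**
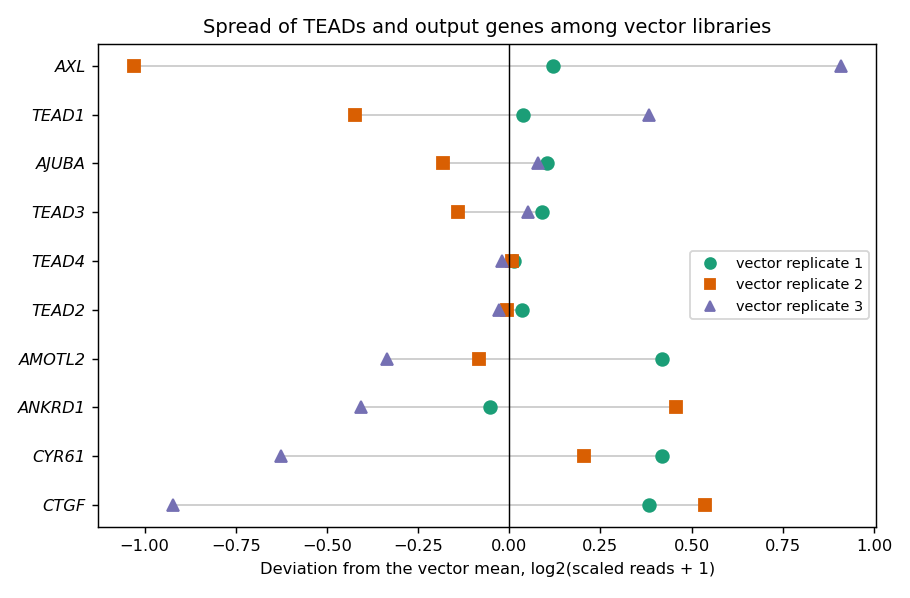
Deviation of each vector library from the vector mean, on the log2(scaled reads + 1) scale, for the 10 genes. Green circles, orange squares and purple triangles are vector replicates 1, 2 and 3. Replicates 2 and 3 stand at opposite ends for AXL, with -1.03 and 0.91, and in the reverse order for CTGF, with 0.54 and -0.92.

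These libraries also differed in a trend with gene length. In the 3016 shortest tested genes (at most 2384 bases) the median deviation was 0.17 in vector replicate 2 and -0.13 in vector replicate 3, and in the 3015 longest (at least 7911 bases) it was -0.14 and 0.11. CTGF is 2339 bases long and AXL 5154. With the trend removed, the CTGF deviation of vector replicate 3 was -0.84, and the AXL deviations of vector replicates 2 and 3 were -1.01 and 0.90, so most of the spread of these 2 genes remained. The order was not kept for all 10 genes. TEAD2 and TEAD4 were then lowest in vector replicate 2 (-0.06 and -0.08) and no longer in vector replicate 3 (0.03 and 0.06). Vector replicate 3 was then lowest for 4 of the 10 genes, beside 36.5% of all genes tested.

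A further 17 genes of a conserved YAP/TAZ target signature were all tested, and they did not change in 1 direction. Among them 3 were called higher and 1 lower (23.5%, against the 4.96% of all genes tested), 10 had positive and 7 negative log2 fold changes, and the median was 0.07. F3, which encodes tissue factor, the starter of blood coagulation, had 27.3, 30.5 and 33.3 scaled reads in the vector and 144, 139 and 152 in those labelled nPD-L1. The groups were far apart and the log2 fold change was 2.22 (SE 0.20, limma adjusted p = 8.09e-05). LATS2, a kinase that phosphorylates YAP and TAZ and is itself induced by them, had 575, 501 and 375 against 780, 756 and 793. Its log2 fold change was 0.70 (SE 0.15, limma adjusted p = 0.0217), and the call was lost without any one of the 3 libraries labelled nPD-L1 (adjusted p 0.0699 to 0.119). In these 3 fits its log2 fold change was 0.69 to 0.72, and 350 to 403 genes were called higher over all genes tested, against 609 with all 6 libraries. ARHGEF17 had 408, 328 and 439 against 616, 591 and 616. Its log2 fold change was 0.64 (SE 0.13, limma adjusted p = 0.0162), and the call was lost without vector replicate 1 (0.0595) or any one library labelled nPD-L1 (0.0614 to 0.0954). The ARHGEF17 log2 fold change in these fits was 0.63 to 0.68.

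GADD45A, a stress and growth-arrest gene that many signals control, was the one called lower. It had 721, 768 and 743 scaled reads in the vector and 429, 394 and 436 in those labelled nPD-L1, well separated. The log2 fold change was -0.83 (SE 0.11, limma adjusted p = 0.000998). F3 and GADD45A kept their calls in all 19 alternatives. The other 13 genes of the list lay between -0.44 and 0.85 and were not called. In the RefSeq set used here 12 genes of this list had a promoter. Of these, 4 (33.3%, against 13.1% of all tested genes with an entry) held an MCAT element: FOXF2, PTPN14, NUAK2 and TGFB2. None of these 4 genes was called. Their log2 fold changes were 0.85, 0.05, 0.43 and -0.29 in that order. FOXF2 lay higher in nPD-L1 without overlap, as did 12% of all genes tested, with a limma adjusted p of 0.0794. F3 and LATS2 held no MCAT element.

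**Figure D4:**
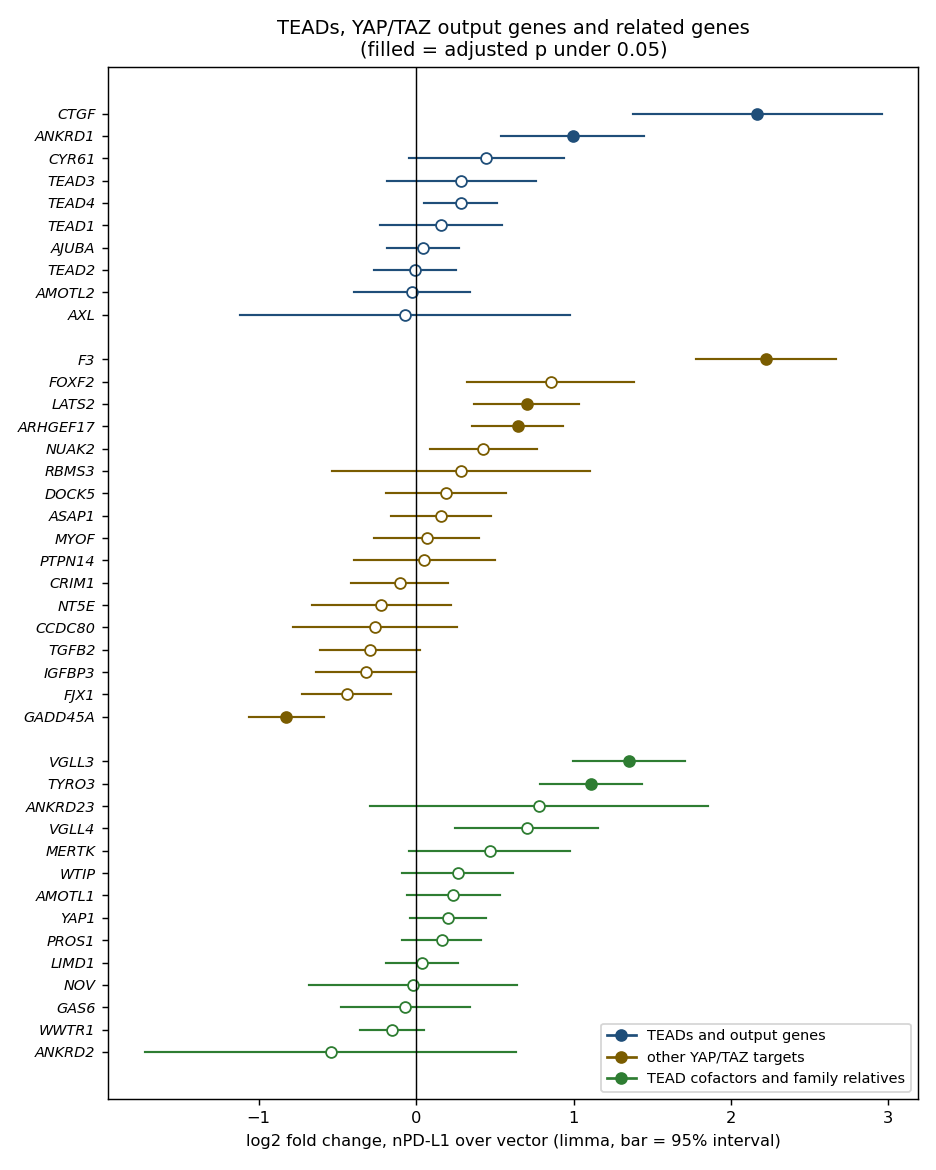
Log2 fold change, nPD-L1 over vector, with 95% intervals from limma for the 10 genes (blue), the 17 other targets (brown) and the 14 tested cofactors and relatives (green). Filled points had an adjusted p under 0.05. CTGF and F3 lie furthest right at 2.17 and 2.22, and the TEADs lie between -0.006 and 0.29.

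Cofactors that bind TEADs, and family relatives of the 10 genes, made up the last list. Of 20 genes listed, VGLL1, VGLL2 and WISP1 are not analysed here, AMOT, WISP2 and WISP3 were too low to test, and 14 were tested. By limma 2 were called higher and 0 lower (14.3%, against 4.04% higher and 0.922% lower over all genes tested), and 0 were lower at an unadjusted p under 0.05. edgeR called 2 higher and DESeq2 3, and each called 0 lower. The median was 0.22. The coactivators themselves were not called: YAP1 had a log2 fold change of 0.21 (95% interval -0.04 to 0.45) and WWTR1, which encodes TAZ, -0.15 (95% interval -0.36 to 0.05).

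VGLL3, a vestigial-like cofactor that binds TEADs, had 759, 576 and 906 scaled reads in the vector and 2015, 1629 and 2015 in those labelled nPD-L1. The groups were well apart, with a log2 fold change of 1.35 (SE 0.16, limma adjusted p = 0.000556). TYRO3, a TAM receptor like AXL, had 347, 282 and 343 against 829, 599 and 687. Its log2 fold change was 1.11 (SE 0.15, limma adjusted p = 0.00115), whereas that of AXL was -0.07, and the difference between both receptors was not tested. VGLL3 and TYRO3 kept their calls in all 19 alternatives. VGLL4, a cofactor known to oppose YAP at TEADs, had 477, 695 and 374 against 682, 916 and 860, with overlap, and its log2 fold change of 0.70 (SE 0.20) missed the threshold (limma adjusted p = 0.0943). The other 12 tested genes lay between -0.54 and 0.78 and were not called, the AXL ligands GAS6 (-0.07) and PROS1 (0.16) and the AXL relative MERTK (0.47) among them.

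Among 10724 tested genes with a mean of at least 100, those whose values followed CTGF most closely over the 6 libraries were SAMD11 (Pearson r = 0.995) and RND3 (r = 0.994). SAMD11 had 555, 594 and 268 scaled reads in the vector and 1252, 1237 and 1130 in those labelled nPD-L1, with the same low vector replicate 3. RND3 had 912, 972 and 663 against 1641, 1469 and 1524. For ANKRD1 they were BRMS1L (r = 0.997; 365, 440 and 318 against 506, 566 and 626) and KLHL24 (r = 0.996; 189, 276 and 135 against 408, 526 and 546). As many as 92 genes had r above 0.95 with CTGF and 78 with ANKRD1. The 6 points share their libraries and size factors and include the group difference itself, so these correlations are descriptions.

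Markers of other cell types were read beside CTGF, which fibroblasts express strongly. Of 7 mesenchymal markers 4 had a row, and their summed level was 170 to 245 scaled reads in the vector and 586 to 655 in those labelled nPD-L1. COL1A1, which encodes a collagen chain, was at 49.9 to 82.8 against 445 to 487 and was called higher (log2 fold change 2.84, limma adjusted p = 7.99e-06). LUM was at 99.9 to 182 against 112 to 161 and was not called. DCN and PDGFRB, defining markers of fibroblasts, were at or below 5.04 and 8.31 in every library. Summed endothelial markers (3 of 5 with a row) were at 1.13 to 7.07 against 4.82 to 8.09, and blood markers (3 of 5) at 2.08 to 12.4 against 1.93 to 16.8. Their part in the CTGF result was not tested. In bulk RNA, fewer cells of a type and less RNA per cell cannot be told apart.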

How the data were processed

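Total RNA (TRIzol Plus) of 3 vector and 3 nPD-L1 libraries was prepared with the NEBNext Ultra kit, which does not mark strand, and sequenced by a company. The submitters' processing notes name CASAVA, HISAT2 2.0.5 and hg38, and the counter and annotation are not given in the sources used here. The authors deposited, per gene and library, a signal: reads divided by a size factor, under a heading that calls them raw counts. All values (100% within 0.001 reads) were whole multiples of each library's smallest one, so whole reads were recovered in the 6 libraries. In vector replicate 1 and nPD-L1 replicate 2 that step is close to 1 (1.01 and 1.01), so the recovery rests there on small differences. The authors' group means and the deposited log2 fold changes, p-values and adjusted p-values were not used. The plan named limma as the main test, and edgeR only if the values were raw counts. Because the values are scaled, limma was used.

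The values were analysed as log2(value + 1), which understates the change of low genes, with limma 3.58.1 (R 4.3.3, eBayes with trend and robust moderation) in the 15076 genes for which 3 or more libraries reached a value of 10. A call needed a Benjamini-Hochberg adjusted p under 0.05 over all genes tested. The coordinates of the 10 genes in the deposited table equal GENCODE 29 (GRCh38). edgeR 4.0.16 (quasi-likelihood) and DESeq2 1.42.0 were run on the recovered reads. Exact permutation tests compared single values. The reported limma fit, edgeR and DESeq2 were tested on simulated data. The members, the lists (17 other targets, 20 cofactors and relatives, cell type markers) and the rules were chosen with earlier results of these data known. Named were all 10 genes, each called gene of the other lists, CD274 and the 2 genes most like each called member. Genes of these lists named beyond that rule were chosen after their values were seen. Alternatives were 2 other pseudocounts, scalings (upper-quartile factors, trimmed mean of M values), filters, non-robust moderation, protein-coding genes only, removal of a gene length trend (loess, span 0.3), a block for the replicate number, omission of each library in turn, and both count models. No batch is named in the labels. At this depth, how far counting adds to the spread between libraries was not tested. The vector coefficient of variation was 60.5% for AXL and 1.23% for TEAD4.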

Additional observations from a re-analysis of the deposited data

How the results depend on the processing

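Over 19 alternatives the CTGF log2 fold change stayed between 1.71 and 2.44 and that of ANKRD1 between 0.79 and 1.23, so the directions held while the calls did not. The number of the 10 genes called higher was 1 with no filter on low values and 1 to 2 with a library left out. Leaving out a library gave 1 to 4 other targets higher and 1 to 3 lower (3 without vector replicate 2), and 350 to 793 genes higher and 77 to 244 lower over all genes tested. Counts of cofactors and relatives, and CD274, kept their side of the threshold or stayed within 1.5 times. Limma on the libraries with recovered reads is the same fit as the reported one, since all 6 had them.

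Sign changes were limited to genes that were not called. TEAD1 was -0.0519 without vector replicate 2 and at most 0.35 with another library left out. TEAD2 was 0.0039 with trimmed mean of M values factors, 0.0067 by edgeR, and -0.0649 to 0.0474 with a library left out. AMOTL2 ran from -0.20 to 0.18 and AXL from -0.58 to 0.39 with a library left out. AJUBA was -0.0079 with upper-quartile factors, -0.03155 with the length trend removed, and -0.0476 to 0.0950 with a library left out. The median over all genes was -0.07 with upper-quartile factors, and no scaling moved it by over 0.1 from 0.

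With the replicate block, 1 of the 10 genes was called higher (ANKRD1). CTGF had an adjusted p of 0.127, and 0.153 with the length trend removed as well. Other targets were 5 higher and 2 lower with the block and 5 higher and 4 lower with the length trend removed too, AJUBA was -0.03155, and TEAD4 was called in that last fit (adjusted p = 0.0461). Over all genes the block gave 927 higher and 258 lower, and 782 higher and 361 lower with the length trend removed too. Higher calls made up 81.4% of all calls in the reported fit and 68.4% with block and length together. The same-number correlations of deviations were -0.01, 0.23 and 0.13. Vector replicates 2 and 3 correlated best with the library of the same number, and vector replicate 1 with nPD-L1 replicate 3 (0.07). With 3 libraries a group these correlations cannot decide whether the numbers pair the libraries. The cause of these changes was not tested.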
